A study of Rattus norvegicus with 12 samples.

Results

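Glycolysis, glycogen metabolism and pyruvate oxidation were followed in newborn rat muscle through 50 named genes, of which 48 were measured. For each gene the probe set with the highest mean over the 12 arrays was taken from the 18957 detected probe sets. Dlst had only a probe set shared with another gene, and Fh was not analysed here. The 48 genes comprised 15 of glycolysis, 1 fructose bisphosphatase, 9 of glycogen, 2 transporters, 9 of pyruvate entry and oxidation and 12 of the tricarboxylic acid cycle.

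RNA came from the hind leg muscle of newborn male Wistar rats and was read on Affymetrix arrays. Pregnant dams received control food, food low in protein, or food low in protein with 2% w/v taurine in the drinking water, in each case from day 1 of gestation. There were 4 arrays per diet, and each array held the pooled RNA of 3 male newborns of 1 dam, so the dam is the replicate. The third group differs from the second by taurine alone, and no group here received taurine with control food. Its arrays are called taurine arrays below, and both low protein groups are compared with the same 4 controls. Unless stated otherwise, a difference with taurine is that of low protein plus taurine against control, groups that differ in both protein and taurine.

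Muscle takes up glucose, phosphorylates it, and either stores it as glycogen or splits it through glycolysis to pyruvate. Pyruvate becomes lactate in the cytosol, or enters mitochondria, where the pyruvate dehydrogenase complex turns it into acetyl-CoA for the tricarboxylic acid cycle. Fetal muscle lays down glycogen that is used after delivery, and during development several general enzymes give way to muscle-specific isoforms.

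The RMA values are log2 levels. The median array level was between 7.66 and 7.67 in the controls, 7.73 and 7.75 with low protein, and 7.71 and 7.74 with taurine. Fibre markers were bright: 11 of them had mean levels from 9.59 to 13.68. Some arrays stood apart. The median of 11 hepatocyte markers, relative to the mean of the 4 controls, was 1.73 and 2.78 in control 3 and control 4, -0.95 in low protein 2 and between -2.42 and -1.78 in the other 9 arrays. The median of 12 immediate early genes, chosen after their values were seen, was 0.63 and 0.92 in taurine arrays 1 and 2 and between -0.29 and 0.16 in the other 10. The summed linear level of the 11 hepatocyte markers, of 18 listed, ran from 1512 to 56400 in the controls, from 1744 to 6230 with low protein and from 1533 to 3139 with taurine. The sum of the 12 immediate early genes, of 13 listed, ran from 2158 to 4134, from 2455 to 2959 and from 3624 to 6438 in the same order. In pooled whole muscle, fewer cells of a type and less RNA per cell cannot be told apart.

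In low protein against control, 7 of the 48 genes rose and 0 fell (14.6%, limma with Benjamini-Hochberg adjustment over all probe sets, threshold 0.05). Over all probe sets 33.7% passed, 21.8% as higher and 11.9% as lower. The genes that rose were Gpi, Fbp2, Gys1, Phka1, Phkb, Cs and Ogdh. The median difference of the 48 genes was 0.064, against 0.070 over all probe sets. It was 0.110 over the 11721 probe sets with a single symbol and 0.134 over the 9478 above the median level. Over those with a mean level of 10 or more it was 0.070. Of the 9478, fitted alone, 3332 rose, and 7 of the 47 genes among them did (14.9%). For the 48 genes the median was -0.018 after each array was centred on its median and -0.031 after cyclic loess. In 8 genes the low protein arrays and the controls were fully apart (16.7%, against 32.8% of all probe sets). The shares of these genes were below those over all probe sets. Without control 3 and control 4, 3 rose, Fbp2, Cs and Ogdh, against 10.8% of all probe sets, and after cyclic loess 2 rose, Cs and Ogdh, against 4.98%. Of 8 endothelial markers, 5 rose with low protein (62.5%, against 21.8% of all probe sets) and 1 with taurine (12.5%, against 10.2%). Their summed linear level ran from 3566 to 4130 in the controls, from 4305 to 4485 with low protein and from 4026 to 4484 with taurine, and their part in the counts was not tested.

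In low protein plus taurine against control, 11 of the 48 genes rose and 0 fell (22.9%, limma adjusted p). Over all probe sets 13.8% passed, 10.2% as higher and 3.60% as lower. Gpi, Pkm, Gys1, Gyg1, Phka1, Phkb, Pdha1, Cs, Idh3b, Ogdh and Mdh2 rose. The background depends on level. Of the 9478 probe sets above the median level, fitted alone, 2145 rose, and 11 of the 47 genes among them did (23.4%). Of the probe sets with a mean level of 10 or more, which include 24 of the genes, 9.51% rose. The median difference of the 48 genes was 0.163, against 0.057 over all probe sets. It was 0.116 over probe sets above the median level and 0.065 over those at 10 or more. For the 48 genes it was 0.101 after median centring and 0.090 after cyclic loess. Leaving out control 3 and control 4 gave 0.099. Without taurine arrays 1 and 2 it was 0.060, against 0.059 over all probe sets. In 9 of the 48 genes the taurine arrays and the controls were fully apart (18.8%, against 20.2% of all probe sets). Without taurine arrays 1 and 2, an alternative chosen after seeing the data, 4 of 48 rose, namely Fbp2, Phka1, Phkb and Ogdh, against 4.47% of all probe sets. Without control 3 and control 4, 2 rose, Phkb and Ogdh, against 2.07% of all probe sets. After cyclic loess 0 rose, against 1.76%.

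**Figure D1:**
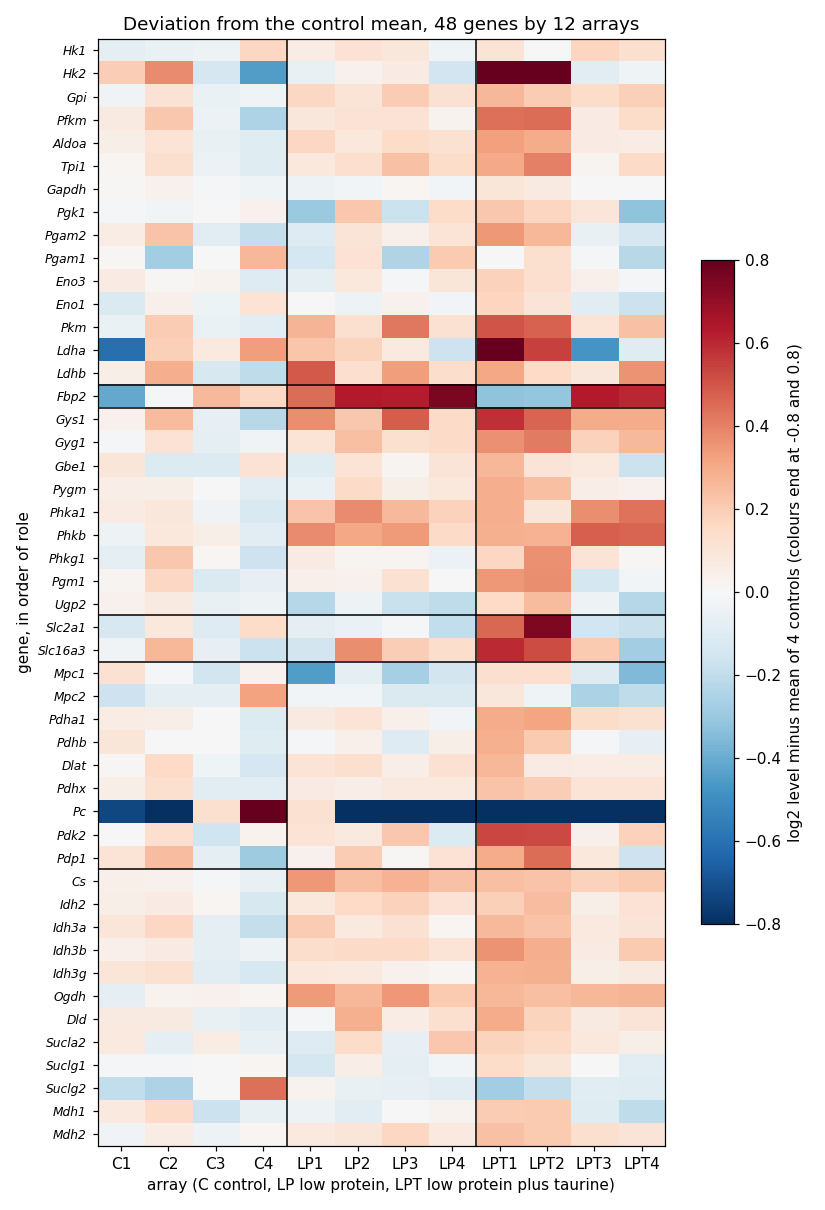
Log2 level of each of 48 genes (rows, in order of role) on each of 12 arrays (columns), minus the mean of the 4 controls. Colours end at -0.8 and 0.8. The columns of taurine arrays 1 and 2 are red in most rows, while taurine arrays 3 and 4 are closer to the low protein arrays.

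The 4 taurine arrays were not alike in these genes. Relative to the control mean, the median of the 48 genes was 0.27, 0.23, 0.06 and 0.05 in taurine arrays 1 to 4. It was 0.07, 0.11, 0.06 and 0.09 in low protein arrays 1 to 4 and 0.03, 0.08, -0.05 and -0.06 in control arrays 1 to 4. Taurine arrays 1 and 2 both lay above arrays 3 and 4 in 41 of the 48 genes, a split described after the values were seen, against 21.0% of all probe sets. Both lay below in 5 genes, against 25.0%. The same arrays were high in the immediate early genes. The median of the 11 fibre markers split alike, at 0.16, 0.20, 0.03 and 0.04 in taurine arrays 1 to 4 and between -0.13 and 0.12 in the other 8. Myog went the other way, at 9.37, 9.53, 9.69 and 9.72 in taurine arrays 1 to 4. Myh3 did not split, at 12.82, 12.71, 12.74 and 12.63. Of the 11 markers, 1 rose in each comparison with control (9.09% in each, against 21.8% and 10.2% of all probe sets). Their summed linear level ran from 56150 to 64221 in the controls, from 60065 to 63900 with low protein and from 61725 to 69206 with taurine. The part of these markers was not tested, and the part of these arrays in the gene differences was not tested beyond leaving them out.

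The glycolysis genes held 1 of 15 that rose with low protein and 2 of 15 that rose with low protein plus taurine, each against control. The shares were 6.67% and 13.3%, against 21.8% and 10.2% of all probe sets. The gene that rose in both was Gpi, glucose-6-phosphate isomerase, which converts glucose 6-phosphate to fructose 6-phosphate. Gpi read 11.99, 12.13, 11.96 and 11.98 in control arrays 1 to 4, 12.18, 12.11, 12.22 and 12.14 in low protein arrays 1 to 4 and 12.28, 12.21, 12.16 and 12.21 in taurine arrays 1 to 4. The difference was 0.15 (SE 0.053; limma adjusted p = 0.0471) with low protein, with overlapping groups, and 0.20 (SE 0.053; limma adjusted p = 0.0291) with taurine, where all 4 taurine arrays lay above the 4 controls. The first call held in 1 of 12 fits that each left out 1 array, with an adjusted p of up to 0.118 in the others. The second was lost without control 1, control 3, control 4, taurine array 1 or taurine array 4 (adjusted p of up to 0.0816). In each comparison with control, 4 of the 12 fits left out an array of the group not compared. Such fits leave the difference as it is and change only the shared spread and the adjusted p.

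Pkm, the pyruvate kinase that makes pyruvate in muscle, read 10.91, 11.16, 10.90 and 10.87 in control arrays 1 to 4, 11.23, 11.09, 11.38 and 11.08 in low protein arrays 1 to 4 and 11.46, 11.43, 11.07 and 11.19 in taurine arrays 1 to 4. It rose by 0.33 with taurine (SE 0.10; limma adjusted p = 0.0486), and was at 0.24 with low protein (limma adjusted p = 0.085). Pkm has 3 probe sets, and those not used were at 0.32 with taurine and did not pass (limma adjusted p = 0.0547 and 0.0540). Control 2 overlapped the taurine arrays, and taurine arrays 1 and 2 were the highest. The taurine call held in 3 of 12 fits without 1 array, and without taurine arrays 1 and 2 the value was 0.17 (limma adjusted p = 0.299). Other steps did not pass in either comparison. Pfkm, the muscle phosphofructokinase that commits glucose to glycolysis, read 10.80, 10.94, 10.68 and 10.48 in control arrays 1 to 4, 10.82, 10.84, 10.84 and 10.75 in low protein arrays 1 to 4 and 11.16, 11.17, 10.79 and 10.87 in taurine arrays 1 to 4. Taurine arrays 1 and 2 were again the highest, and the difference was 0.27 with taurine (SE 0.10; limma adjusted p = 0.0885).

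Hexokinase traps glucose in the cell as glucose 6-phosphate. Hk2, the isoform that insulin-sensitive muscle uses, read 7.86, 8.04, 7.53 and 7.22 in control arrays 1 to 4, 7.60, 7.70, 7.73 and 7.51 in low protein arrays 1 to 4 and 8.73, 8.80, 7.58 and 7.63 in taurine arrays 1 to 4. Taurine arrays 1 and 2 lay above every other array, and taurine arrays 3 and 4 lay among the controls. The difference from control was 0.52 (SE 0.27; limma adjusted p = 0.182), and -0.061 without arrays 1 and 2 (limma adjusted p = 0.842). Hk1, the isoform of most tissues, read 8.05, 8.08, 8.09 and 8.29 in control arrays 1 to 4, 8.19, 8.24, 8.22 and 8.09 in low protein arrays 1 to 4 and 8.23, 8.13, 8.30 and 8.26 in taurine arrays 1 to 4. Its taurine difference was 0.10 (limma adjusted p = 0.258), with all groups overlapping.

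Lactate dehydrogenase converts pyruvate and lactate into each other. Ldha, the subunit common in fast muscle, read 11.48, 12.27, 12.15 and 12.41 in control arrays 1 to 4, 12.30, 12.25, 12.15 and 11.91 in low protein arrays 1 to 4 and 12.90, 12.62, 11.60 and 11.98 in taurine arrays 1 to 4. Control 1 and taurine array 3 were the lowest and taurine array 1 the highest, so the groups overlapped widely (limma adjusted p = 0.831 with low protein and 0.594 with taurine). Ldhb, the subunit common in heart, read 9.81, 10.05, 9.63 and 9.56 in control arrays 1 to 4, 10.26, 9.90, 10.10 and 9.90 in low protein arrays 1 to 4 and 10.07, 9.92, 9.85 and 10.13 in taurine arrays 1 to 4. It was at 0.28 with low protein (limma adjusted p = 0.0731) and at 0.23 with taurine (limma adjusted p = 0.162). A further probe set of Ldha was at -0.03 and 0.04 in the 2 comparisons, against 0.077 and 0.20 for the one used.

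The remaining glycolysis genes did not pass. Gapdh, glyceraldehyde-3-phosphate dehydrogenase, was at -0.018 with low protein and 0.043 with taurine. Gapdh has 16 probe sets on the table, so its value stands for a family with near-identical copies and is uncertain. Aldoa, muscle aldolase, was at 0.13 and 0.19, Tpi1, triose phosphate isomerase, at 0.15 and 0.22, and Pgk1, phosphoglycerate kinase, at -0.026 and 0.041, in the same order, with a smallest limma adjusted p of 0.0785.

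Isoform pairs were compared within each array, as the log2 difference between the muscle-type and the general isoform. For lactate dehydrogenase it was Ldha, common in fast muscle, minus Ldhb, common in heart. Phosphoglycerate mutase and enolase carry out neighbouring late steps of glycolysis. Pgam2, the muscle mutase, read 11.28, 11.45, 11.13 and 11.03 in control arrays 1 to 4, 11.12, 11.32, 11.26 and 11.33 in low protein arrays 1 to 4 and 11.57, 11.49, 11.16 and 11.09 in taurine arrays 1 to 4. Pgam1, the general mutase, read 11.41, 11.13, 11.41 and 11.67 in control arrays 1 to 4, 11.26, 11.52, 11.16 and 11.61 in low protein arrays 1 to 4 and 11.40, 11.53, 11.39 and 11.18 in taurine arrays 1 to 4. In both genes the 3 groups overlapped. Eno3, the muscle enolase, read 12.91, 12.86, 12.88 and 12.75 in control arrays 1 to 4, 12.78, 12.93, 12.83 and 12.95 in low protein arrays 1 to 4 and 13.04, 12.99, 12.89 and 12.84 in taurine arrays 1 to 4. Eno1, the general enolase, read 11.09, 11.25, 11.17 and 11.32 in control arrays 1 to 4, 11.21, 11.17, 11.24 and 11.19 in low protein arrays 1 to 4 and 11.38, 11.31, 11.11 and 11.04 in taurine arrays 1 to 4. These groups overlapped as well. None of the pairs passed. Over Pgam2 minus Pgam1, Eno3 minus Eno1, Hk2 minus Hk1 and Ldha minus Ldhb in 3 comparisons, the exact two-sided permutation p lay between 0.371 and 0.943, and between 0.857 and 0.943 after adjustment over the 12 tests. With 4 arrays against 4 the smallest p possible is 0.0286. The widest shift was Hk2 minus Hk1 with taurine against low protein at 0.50, and 9 of the 12 pair differences turned sign when arrays were left out in pairs or the scaling changed.

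Fbp2, the muscle fructose bisphosphatase that runs opposite to phosphofructokinase, gave the widest low protein difference that passed. Fbp2 read 7.55, 7.95, 8.22 and 8.13 in control arrays 1 to 4, 8.41, 8.60, 8.59 and 8.72 in low protein arrays 1 to 4 and 7.64, 7.66, 8.60 and 8.56 in taurine arrays 1 to 4. The 4 low protein arrays lay above all 4 controls, while taurine arrays 1 and 2 sat with the lowest control and taurine arrays 3 and 4 with the low protein arrays. The difference was 0.62 (SE 0.22; limma adjusted p = 0.0456) with low protein and 0.15 (limma adjusted p = 0.637) with taurine. Without taurine arrays 1 and 2 it was 0.62 with taurine (limma adjusted p = 0.0488). The low protein call was lost when any 1 control or any 1 low protein array was left out (limma adjusted p of up to 0.115), and without control 3 and control 4 the value was 0.83 (limma adjusted p = 0.0458).

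**Figure D2:**
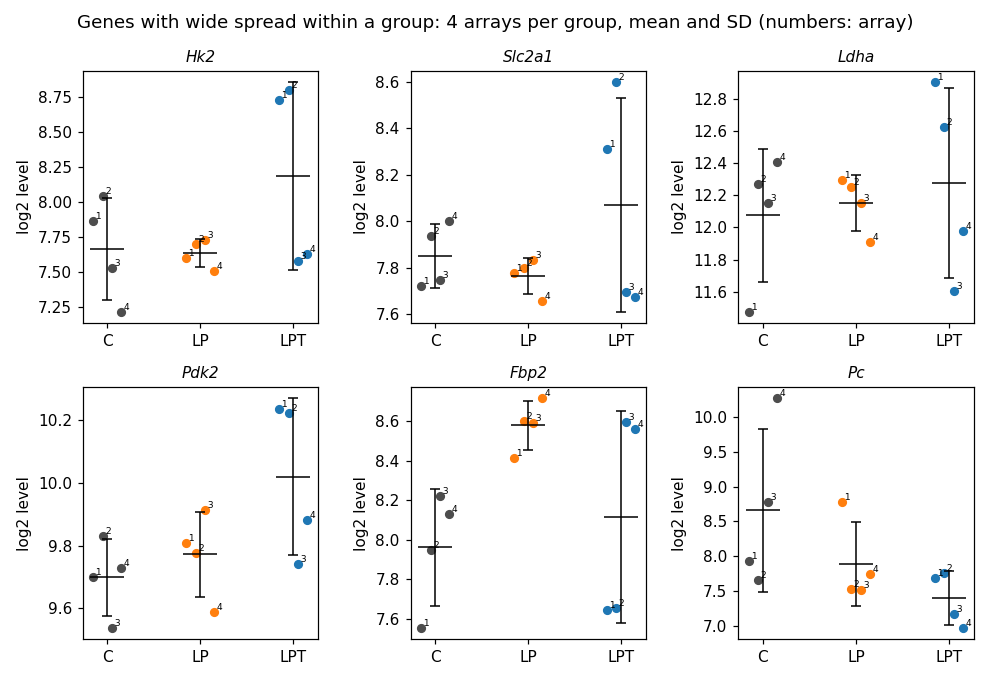
Log2 level (vertical axis) of 6 genes in 4 arrays per group, with points numbered by array and bars for mean and SD. In Hk2, Slc2a1, Ldha and Pdk2 taurine arrays 1 and 2 are above arrays 3 and 4, in Fbp2 they are below, and in Pc control 3 and control 4 are the highest controls.

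Of 9 glycogen genes, 3 rose with low protein and 4 with low protein plus taurine, each against control, and 0 fell in either. The shares were 33.3% and 44.4%, against 21.8% and 10.2% of all probe sets. Of the 9478 probe sets above the median level, fitted alone, 3332 rose with low protein and 2145 with taurine. The glycogen genes that passed in both comparisons were Gys1, Phka1 and Phkb. Gyg1 passed with taurine, while its difference between the low protein groups did not pass (limma adjusted p = 0.439). Phosphorylase kinase activates glycogen phosphorylase, and Phkb and Phka1 encode its beta and its muscle alpha subunit. Phkb read 8.46, 8.59, 8.55 and 8.41 in control arrays 1 to 4, 8.88, 8.81, 8.85 and 8.65 in low protein arrays 1 to 4 and 8.78, 8.78, 8.98 and 8.97 in taurine arrays 1 to 4. All 4 arrays of both low protein groups lay above all 4 controls. Phkb rose by 0.30 with low protein (SE 0.071; limma adjusted p = 0.0109) and by 0.38 with taurine (SE 0.071; limma adjusted p = 0.0123), fold changes of 1.23 and 1.30. Both calls held in each of 12 fits without 1 array. After cyclic loess they were at 0.14 (limma adjusted p = 0.178) and 0.24 (limma adjusted p = 0.051).

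Phka1 read 8.21, 8.23, 8.12 and 8.02 in control arrays 1 to 4, 8.37, 8.52, 8.40 and 8.33 in low protein arrays 1 to 4 and 8.44, 8.24, 8.51 and 8.58 in taurine arrays 1 to 4. The 4 low protein arrays were above the 4 controls, and so were the 4 taurine arrays, of which array 2 was the lowest. Phka1 rose by 0.26 with low protein (SE 0.077; limma adjusted p = 0.024) and by 0.30 with taurine (SE 0.077; limma adjusted p = 0.0281). The low protein call was lost without control 3, control 4, low protein 2 or low protein 3 (adjusted p of up to 0.068). The taurine call was lost without control 3, control 4 or taurine array 1, 3 or 4 (up to 0.0721). Phkg1, the muscle catalytic subunit, did not pass, at 0.017 and 0.16.

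Glycogenin, encoded by Gyg1, starts a glycogen particle by adding the first glucose units to itself. Gyg1 read 10.28, 10.40, 10.21 and 10.26 in control arrays 1 to 4, 10.39, 10.53, 10.41 and 10.44 in low protein arrays 1 to 4 and 10.65, 10.70, 10.47 and 10.54 in taurine arrays 1 to 4. All 4 taurine arrays lay above all 4 controls, whereas control 2 overlapped low protein array 1. The rise with taurine was 0.31 (SE 0.063; limma adjusted p = 0.0162) and the low protein difference was 0.16 (limma adjusted p = 0.0693). The taurine call held in each of 12 fits without 1 array. Gys1, muscle glycogen synthase, rose by 0.31 with low protein (limma adjusted p = 0.0422; groups overlapping) and by 0.41 with taurine (limma adjusted p = 0.0281). The low protein call for Gys1 was lost without control 1, 3 or 4 or low protein 1, 2 or 3, the taurine call without control 3, control 4 or taurine array 1, and the highest adjusted p were 0.116 and 0.0819.

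Ugp2, which makes UDP-glucose for glycogen synthesis, read 10.53, 10.57, 10.43 and 10.45 in control arrays 1 to 4, 10.26, 10.46, 10.31 and 10.29 in low protein arrays 1 to 4 and 10.65, 10.75, 10.46 and 10.27 in taurine arrays 1 to 4. It was at -0.16 with low protein (limma adjusted p = 0.169) and at 0.036 with taurine (limma adjusted p = 0.793). Low protein arrays 1, 3 and 4 lay below all controls and array 2 did not. Gbe1, the branching enzyme, Pygm, the muscle phosphorylase, and Pgm1, phosphoglucomutase, did not pass in either comparison. Their differences ran from 0.035 to 0.058 with low protein and from 0.068 to 0.15 with taurine.

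Neither transporter passed. Slc2a1 encodes the glucose transporter that is abundant in fetal muscle, and Slc16a3 the carrier that exports lactate. Slc2a1 read 7.72, 7.94, 7.75 and 7.999 in control arrays 1 to 4, 7.78, 7.80, 7.83 and 7.65 in low protein arrays 1 to 4 and 8.31, 8.60, 7.70 and 7.67 in taurine arrays 1 to 4. Slc16a3 read 8.52, 8.82, 8.48 and 8.38 in control arrays 1 to 4, 8.40, 8.92, 8.75 and 8.69 in low protein arrays 1 to 4 and 9.14, 9.07, 8.76 and 8.27 in taurine arrays 1 to 4. In both genes taurine arrays 1 and 2 were above all controls, and arrays 3 and 4 lay among or below the controls. The taurine differences were 0.22 (SE 0.17; limma adjusted p = 0.37) and 0.26 (SE 0.17; limma adjusted p = 0.289). Without arrays 1 and 2 they were -0.17 and -0.035.

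Of 9 genes of pyruvate entry and oxidation, 0 rose with low protein and 1 with low protein plus taurine, each against control. The shares were 0% and 11.1%, against 21.8% and 10.2% of all probe sets. Pdha1, the catalytic subunit that takes pyruvate into the dehydrogenase complex, read 10.75, 10.74, 10.70 and 10.58 in control arrays 1 to 4, 10.77, 10.80, 10.74 and 10.67 in low protein arrays 1 to 4 and 10.99, 11.01, 10.84 and 10.82 in taurine arrays 1 to 4. Every taurine array lay above every control and every low protein array. It rose by 0.22 against control (SE 0.061; limma adjusted p = 0.0366), and the low protein difference was 0.051 (limma adjusted p = 0.526). The call was lost without control 1, 3 or 4 or taurine array 1 or 2 (adjusted p of up to 0.0979), and without taurine arrays 1 and 2 together it was 0.13 (limma adjusted p = 0.21).

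Pdk2, a kinase that switches the complex off, read 9.70, 9.83, 9.54 and 9.73 in control arrays 1 to 4, 9.81, 9.78, 9.91 and 9.59 in low protein arrays 1 to 4 and 10.24, 10.22, 9.74 and 9.88 in taurine arrays 1 to 4. It did not pass, at 0.074 and 0.32 (limma adjusted p = 0.622 and 0.0709). Taurine arrays 1 and 2 were again the highest. Mpc1, a subunit of the carrier that brings pyruvate into mitochondria, read 8.40, 8.27, 8.13 and 8.31 in control arrays 1 to 4, 7.83, 8.20, 8.01 and 8.13 in low protein arrays 1 to 4 and 8.40, 8.41, 8.17 and 7.92 in taurine arrays 1 to 4. With low protein it was at -0.24 (limma adjusted p = 0.113), with low protein arrays 1, 3 and 4 below or level with the lowest control, and it passed as lower after cyclic loess, at -0.38 (limma adjusted p = 0.041).

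Pc encodes pyruvate carboxylase, which refills the tricarboxylic acid cycle and serves gluconeogenesis in the liver. Pc read 7.93, 7.65, 8.78 and 10.27 in control arrays 1 to 4, 8.78, 7.52, 7.51 and 7.75 in low protein arrays 1 to 4 and 7.69, 7.76, 7.16 and 6.97 in taurine arrays 1 to 4. Control 3 and control 4, the arrays with the highest hepatocyte markers, were the highest controls. It was at -0.77 with low protein (SE 0.48; limma adjusted p = 0.213) and -1.26 with taurine (SE 0.48; limma adjusted p = 0.0852). Without control 3 and control 4 it was at 0.10 and -0.39. Suclg2 and Mpc2 were likewise highest in control 4, at 9.63 and 9.53. Low protein 1, the other array with a high Pc level, had the highest median of 7 adipocyte markers, at 1.15 relative to the control mean. The part of these markers in the differences was not tested beyond leaving out the controls. Pdhb, Dlat, Pdhx, Mpc2 and Pdp1, other subunits of the complex, the carrier and the phosphatase that switches the complex on, did not pass, with differences from -0.069 to 0.10 with low protein and -0.10 to 0.17 with taurine.

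In the tricarboxylic acid cycle, 2 of 12 genes rose with low protein and 4 of 12 with taurine, and 0 fell. The shares were 16.7% and 33.3%, against 21.8% and 10.2% of all probe sets. Among the 9478 probe sets above the median level, 3332 rose with low protein and 2145 with taurine when fitted alone. Ogdh, a subunit of the 2-oxoglutarate dehydrogenase complex, read 9.84, 9.94, 9.95 and 9.93 in control arrays 1 to 4, 10.25, 10.18, 10.26 and 10.12 in low protein arrays 1 to 4 and 10.18, 10.16, 10.18 and 10.19 in taurine arrays 1 to 4. The groups did not overlap in either comparison, and the 4 taurine arrays lay close together. Ogdh rose from 9.91 ± 0.05 to 10.20 ± 0.065 with low protein (SD, n = 4; limma adjusted p = 0.00461) and to 10.18 ± 0.014 with taurine (SD, n = 4; limma adjusted p = 0.0119). These are fold changes of 1.22 and 1.20. The calls held in each of 12 fits without 1 array, in 26 of 26 alternatives for low protein and in 25 of 26 for taurine, the exception being cyclic loess, where Ogdh was at 0.15 (limma adjusted p = 0.103).

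Cs encodes citrate synthase, which starts the cycle and is widely used as a measure of mitochondrial content. It read 10.98, 10.97, 10.92 and 10.88 in control arrays 1 to 4, 11.28, 11.18, 11.21 and 11.17 in low protein arrays 1 to 4 and 11.18, 11.17, 11.12 and 11.15 in taurine arrays 1 to 4. All 4 arrays of each low protein group lay above all 4 controls. Cs rose from 10.94 ± 0.046 to 11.21 ± 0.051 with low protein (SD, n = 4; limma adjusted p = 0.00474) and to 11.15 ± 0.026 with taurine (SD, n = 4; limma adjusted p = 0.0178). A second, dimmer probe set of Cs did not follow and was at -0.10 with low protein, so that the mean of both was 0.087 (limma adjusted p = 0.176). With taurine the mean of both was 0.084 (limma adjusted p = 0.232). The taurine call was lost in 7 of 26 alternatives, including that mean. Without control 3 or taurine array 1 the adjusted p was up to 0.0513. It was 0.0979 without control 3 and control 4, 0.0731 without taurine arrays 1 and 2, 0.0601 after median centring and 0.0728 after cyclic loess, with values of 0.18, 0.19, 0.15 and 0.14.

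**Figure D3:**
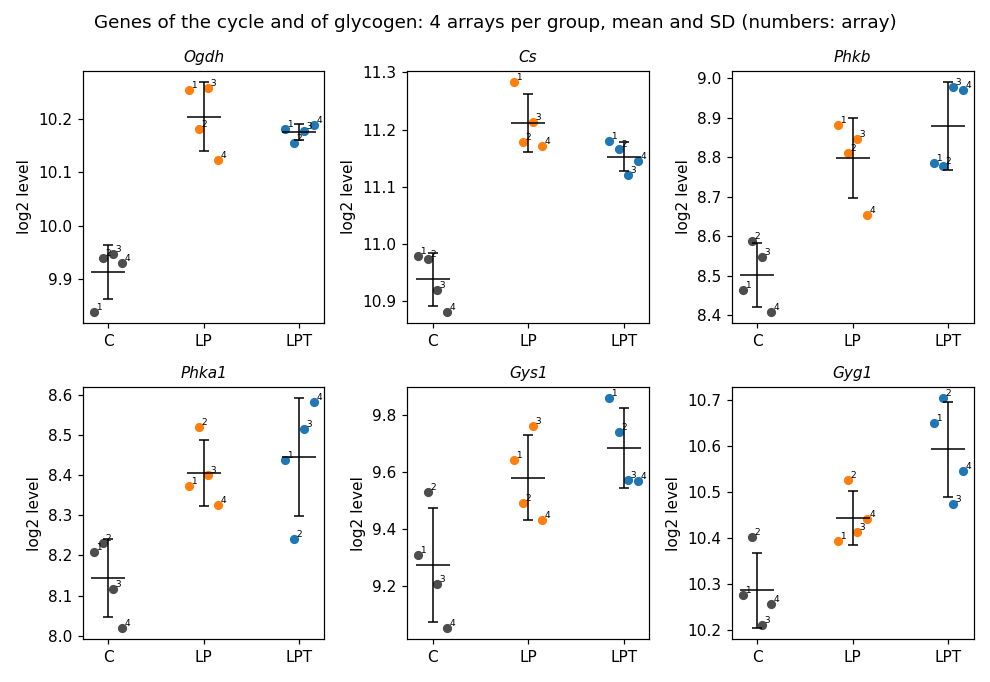
Log2 level (vertical axis) of 6 genes of the cycle and of glycogen in 4 arrays per group, with points numbered by array and bars for mean and SD. The control arrays are below both low protein groups in Ogdh, Cs and Phkb, and overlap the low protein arrays in Gys1 and Gyg1.

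The 3 subunits of the NAD-dependent isocitrate dehydrogenase differed in their calls. Idh3b read 11.25, 11.27, 11.14 and 11.16 in control arrays 1 to 4, 11.35, 11.36, 11.36 and 11.31 in low protein arrays 1 to 4 and 11.56, 11.50, 11.27 and 11.42 in taurine arrays 1 to 4, and rose by 0.23 with taurine (SE 0.063; limma adjusted p = 0.0332). The call was lost without control 1, 3 or 4 or taurine array 1, 2 or 4 (adjusted p of up to 0.092). Idh3g read 11.06, 11.09, 10.88 and 10.84 in control arrays 1 to 4, 11.05, 11.05, 10.998 and 10.98 in low protein arrays 1 to 4 and 11.24, 11.25, 11.01 and 11.04 in taurine arrays 1 to 4, with taurine arrays 1 and 2 above every other array and a difference of 0.17 (limma adjusted p = 0.126). Idh3a was at 0.17 (limma adjusted p = 0.151), so that all 3 differences were positive and 1 passed. Mdh2, mitochondrial malate dehydrogenase, rose by 0.17 with taurine (SE 0.05; limma adjusted p = 0.0416), a call kept in 2 of 12 fits without 1 array. Its cytosolic relative Mdh1 was at -0.024 with low protein and 0.029 with taurine. Idh2, Dld, Sucla2, Suclg1 and Suclg2, further enzymes of the cycle, did not pass in either comparison.

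**Figure D4:**
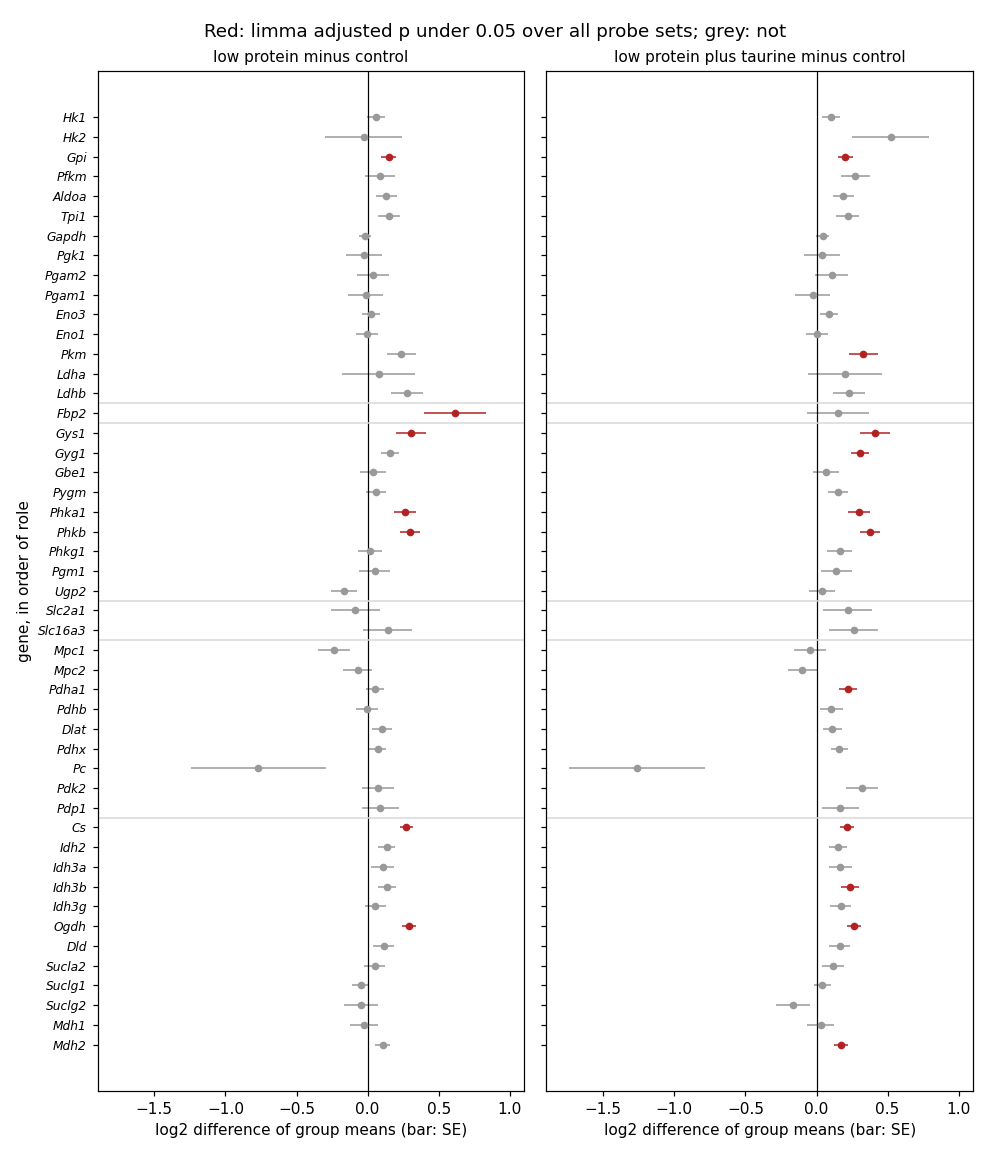
Log2 difference of group means with its standard error, for 48 genes in order of role, with low protein minus control on the left and low protein plus taurine minus control on the right. Red points passed a limma adjusted p of 0.05, 7 on the left and 11 on the right, and all of them lie to the right of 0.

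Promoters of 4 of these genes are shown because they span the pattern: Ogdh and Cs rose in both low protein groups, Gyg1 rose with taurine, and Slc2a1 did not pass and was highest in taurine arrays 1 and 2. Each line runs 5′ to 3′ on the gene's strand, from 250 bases before to 50 bases after the start, in RefSeq's GRCr8 build. Capitals mark ACGTG, the core of the site that hypoxia-inducible factors bind, and CACGTG, the E-box that contains it, on either strand. Ogdh lies at chr14:85363781-85364080 (plus strand), Cs at chr7:1348139-1348438 (plus strand), Gyg1 at chr2:104582728-104583027 (minus strand) and Slc2a1 at chr5:138002272-138002571 (plus strand).
Ogdh: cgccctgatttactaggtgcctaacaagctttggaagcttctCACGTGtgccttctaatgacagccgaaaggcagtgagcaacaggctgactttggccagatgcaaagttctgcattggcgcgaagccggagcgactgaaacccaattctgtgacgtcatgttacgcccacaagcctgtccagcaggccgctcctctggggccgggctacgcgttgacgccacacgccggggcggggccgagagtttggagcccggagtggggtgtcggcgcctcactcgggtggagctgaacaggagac
Cs: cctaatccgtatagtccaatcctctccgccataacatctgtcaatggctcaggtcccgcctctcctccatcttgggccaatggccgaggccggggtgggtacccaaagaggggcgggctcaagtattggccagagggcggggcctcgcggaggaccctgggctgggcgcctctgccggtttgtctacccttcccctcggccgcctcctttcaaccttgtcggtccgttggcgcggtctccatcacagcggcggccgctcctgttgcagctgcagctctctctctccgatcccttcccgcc
Gyg1: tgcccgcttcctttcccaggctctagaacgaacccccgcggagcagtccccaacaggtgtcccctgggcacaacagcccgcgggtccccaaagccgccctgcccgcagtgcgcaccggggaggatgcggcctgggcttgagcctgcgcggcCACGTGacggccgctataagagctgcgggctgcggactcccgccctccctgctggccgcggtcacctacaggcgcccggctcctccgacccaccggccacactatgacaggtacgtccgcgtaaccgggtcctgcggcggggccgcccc
Slc2a1: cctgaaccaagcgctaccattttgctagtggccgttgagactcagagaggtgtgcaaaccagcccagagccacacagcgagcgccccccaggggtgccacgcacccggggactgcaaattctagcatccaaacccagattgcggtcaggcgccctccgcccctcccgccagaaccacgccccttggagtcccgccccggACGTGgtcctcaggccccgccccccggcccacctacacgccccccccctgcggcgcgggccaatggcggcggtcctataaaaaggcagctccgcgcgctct

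Of 43 genes with a promoter in the table, counting the first listed promoter of each gene, 16 held ACGTG (37.2%), against 19.7% of the first listed promoters of 27457 rat genes, of the same length. CACGTG was in 5 (11.6%, against 6.65%), and every CACGTG also counts as an ACGTG. TNAAGGTCA, the site of estrogen-related receptors, was in 1, Tpi1 (2.33%, against 1.15%). Ogdh and Gyg1 hold CACGTG and Slc2a1 ACGTG, and Cs holds neither. Base composition was not matched, and these are matches of letters, not shown to be bound.

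In low protein plus taurine against low protein, 0 of the 48 genes passed (limma adjusted p, smallest 0.402, that of Pdha1), and 0% of all probe sets did. At an unadjusted p under 0.05, 4 of 48 did, against 10.8% of all probe sets: Pdha1 at 0.17 (adjusted p = 0.402), Ugp2 at 0.20 (adjusted p = 0.459), Gyg1 at 0.15 (adjusted p = 0.439) and Pdk2 at 0.25 (adjusted p = 0.459), all limma. For 3 genes, Pdha1, Pdhx and Suclg2, the arrays did not overlap, against 6.87% of all probe sets. The widest difference was in Hk2, at 0.55 (SE 0.27; limma adjusted p = 0.482), with arrays 3 and 4 among the low protein arrays. The median of the 48 genes was 0.068, and -0.024 without taurine arrays 1 and 2.

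Among genes of the same pathways outside the 48, 72 of 89 were measured. With low protein 16 rose and 1 fell, and with taurine 8 rose and 1 fell (limma adjusted p). The shares that rose were 22.2% and 11.1%, close to the 21.8% and 10.2% of all probe sets. Of 12 further glycogen genes, 3 rose with low protein and 1 with taurine (25% and 8.33%, against the same 21.8% and 10.2%). Pygb, the phosphorylase of brain and fetal tissue, read 8.44, 8.36, 8.54 and 8.43 in control arrays 1 to 4, 8.80, 8.88, 8.83 and 8.95 in low protein arrays 1 to 4 and 8.55, 8.48, 8.78 and 8.54 in taurine arrays 1 to 4, and rose by 0.42 with low protein (limma adjusted p = 0.00457) with no overlap, whereas the taurine arrays were at 0.14 (limma adjusted p = 0.161). Epm2a, which encodes the glycogen phosphatase laforin, rose by 0.42 and 0.38 (limma adjusted p = 0.0101 and 0.0278). Ppp1r3d, a targeting subunit of the phosphatase that acts on glycogen enzymes, rose by 0.23 with low protein (limma adjusted p = 0.0226).

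Of 20 further pyruvate and cycle genes, 3 rose with low protein and 2 with taurine (15% and 10%, against 21.8% and 10.2% of all probe sets). Pdk3, another kinase of the pyruvate dehydrogenase complex, read 8.09, 8.09, 8.08 and 7.99 in control arrays 1 to 4, 8.27, 8.42, 8.43 and 8.36 in low protein arrays 1 to 4 and 8.25, 8.12, 8.29 and 8.34 in taurine arrays 1 to 4, and rose by 0.31 and 0.19 (limma adjusted p = 0.00573 and 0.0497). Me1, the cytosolic malic enzyme, rose by 0.36 with low protein (limma adjusted p = 0.00651). Slc25a11, a mitochondrial carrier of 2-oxoglutarate, rose by 0.21 with taurine (limma adjusted p = 0.0497). Slc25a11 was at 11.62, 11.56, 11.37 and 11.36 in taurine arrays 1 to 4, and without arrays 1 and 2 the difference was 0.10 (limma adjusted p = 0.299). Of 17 further glycolysis genes, 3 rose and 1 fell with low protein, and 1 rose and 1 fell with taurine. The shares that rose were 17.6% and 5.88%, against 21.8% and 10.2% of all probe sets. Pfkfb4, a regulator of phosphofructokinase, rose by 0.34 with low protein (limma adjusted p = 0.0112), and Gpd2, mitochondrial glycerol-3-phosphate dehydrogenase, by 0.41 with taurine (limma adjusted p = 0.0165). Without taurine arrays 1 and 2, Gpd2 was at 0.35 (limma adjusted p = 0.0691). Pklr, the pyruvate kinase of liver and red cells, fell in both (log2 -0.82 and -0.71) and was highest in control 3 and control 4, at 6.83, 6.89, 7.47 and 8.08 in controls 1 to 4. Without control 3 and control 4, Pklr was at -0.36 and -0.26 (limma adjusted p = 0.0109 and 0.0644). Of 7 further transporters, 0 rose with low protein and 1 with taurine (0% and 14.3%, against 21.8% and 10.2% of all probe sets). The insulin-responsive glucose transporter gene Slc2a4 rose with taurine by 0.56 (limma adjusted p = 0.042). Slc2a4 was at 9.42, 9.46, 8.82 and 8.72 in taurine arrays 1 to 4 and at 8.69, 8.75, 8.46 and 8.27 in the controls, with overlapping groups, and without taurine arrays 1 and 2 the difference was 0.23 (limma adjusted p = 0.268).

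Of 16 transcription regulators of these genes, 7 rose with low protein and 3 with taurine (43.8% and 18.8%, against 21.8% and 10.2% of all probe sets). Above the median level 3332 of 9478 probe sets rose with low protein and 2145 with taurine, fitted alone. Not every regulator lay above that level of 7.71, Myc having a mean of 7.34. Hif1a, a hypoxia-inducible factor that activates glycolysis genes, read 9.41, 9.50, 9.39 and 9.40 in control arrays 1 to 4, 9.85, 9.55, 9.68 and 9.71 in low protein arrays 1 to 4 and 9.78, 9.70, 9.73 and 9.76 in taurine arrays 1 to 4. The arrays of both low protein groups lay above all controls, and Hif1a rose by 0.27 and 0.32 (limma adjusted p = 0.00914 and 0.0135). Vhl, which marks Hif1a for degradation, rose by 0.29 with low protein (limma adjusted p = 0.0101), and Myc, a regulator of growth and glycolysis, by 0.30 with taurine (limma adjusted p = 0.0225). Myc was at 0.22 without taurine arrays 1 and 2 (limma adjusted p = 0.0941). After cyclic loess Hif1a was at 0.14 and 0.19 (limma adjusted p = 0.16 and 0.0883). Of the calls of the pathway genes named here outside the 48, those of Pygb, Epm2a and Pklr with low protein held after cyclic loess, and the others did not.

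The authors' deposited table of selected probe sets lists 3 of the 48 genes, among 895 probe sets. Their list of changed probe sets has 1318, against 18957 detected, and also holds 3 of the 48. In the authors' deposited table Ogdh has ratios of low protein and taurine means to control of 1.22 and 1.20, Phkb of 1.23 and 1.30, and Cs of 1.21 and 1.16. The authors' deposited table marks Cs as partly rescued by taurine, with a p of 0.0412 for low protein against low protein plus taurine, whose header states no adjustment. In the fit used here, Cs was at -0.059 for low protein plus taurine against low protein (limma adjusted p = 0.646), with overlapping groups. The second, dimmer probe set of Cs was at 0.053 (limma adjusted p = 0.753).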

How the data were processed

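The deposited log2 values are RMA levels of probe sets, computed in R 3.2.2 per the submitters' processing notes. The authors also deposited p-values, linear intensity means and their ratio for selected probe sets, per that table's headers. The platform table gave 11721 probe sets a single symbol, 141 several and 7095 none. A single limma 3.58.1 fit (R 4.3.3) took all 12 arrays with 3 group means and eBayes. Two-sided p-values were adjusted after Benjamini and Hochberg across the 18957 probe sets, with a threshold of 0.05, and the fit was checked on simulated data.

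Members and lists were chosen with earlier results of these data known. Values of all arrays are given for members with the 2 smallest p per role and comparison, the isoform pairs, the transporters and Fbp2. Other pathway genes were named by smallest p, up to 3 per list. Same-numbered arrays deviated together (correlation over 0.1) in 3 of 12 pairs, so numbers were not treated as pairs. Promoters came from RefSeq, matched by gene ID for 43 members. The alternatives were the replicate block, other fit options, filters and normalizations, thresholds, and omitted arrays. No scan date is known here. The p-values measure the spread between dams, and the number of arrays limits precision.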

Additional observations from a re-analysis of the deposited data

Results flagged for a closer look

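In 6 of 156 groups of 4 arrays 1 array stood far from the other 3, and chance alone flags about 1 in 20. Hk1 in control 4 was at 8.29, with the next control at 8.09. Gpi and Pkm were highest in control 2, at 12.13 and 11.16, with the next at 11.99 and 10.91. Ogdh in control 1 was lowest at 9.84, with the next at 9.93. Dlat in taurine array 1 was at 9.60, with the next at 9.40. The difference of Ldha minus Ldhb in low protein 2 was 2.36, with the next at 2.05.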

How the results depend on the processing

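No call turned direction among the 18 called differences of single genes. For low protein against control, 7 genes passed, against 4 in the table of all probe sets, 2 after quantile normalization, 3 after median centring, 3 after cyclic loess (2 higher and 1 lower), 11 with array weights, 3 without control 3 and control 4, 2 at an adjusted p of 0.01 and 11 at 0.1. Leaving out 1 array gave 3 to 9, with 3 without control 3, control 4, low protein 2 or low protein 3. For taurine against control, 11 passed, against 7 with the replicate block, 4 with only the groups compared, 4 after quantile normalization, 3 after median centring, 0 after cyclic loess, 2 without control 3 and control 4, 4 without taurine arrays 1 and 2, 0 at 0.01 and 18 at 0.1 (17 higher and 1 lower). In this comparison 1934 of the 18957 probe sets rose and 682 fell, against 1475 and 499 with the replicate block. With only the groups compared 939 rose and 414 fell. The numbers were 554 and 647 after quantile normalization, 599 and 1223 after median centring and 333 and 804 after cyclic loess. Without control 3 and control 4, 393 rose and 514 fell, and without taurine arrays 1 and 2, 847 and 166. Leaving out 1 array gave 3 to 14 genes, with 3 without control 3 or taurine array 1. The probe sets that rose then ran from 455 without taurine array 1 to 2118 without control 2. For taurine against low protein 0 of the 48 genes passed in each alternative run. The replicate numbers pair no arrays. Medians moved to -0.018 and 0.101 after centring, -0.031 and 0.090 after cyclic loess, and 0.036 and 0.099 without control 3 and control 4, for low protein and taurine.

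Isoform pairs, none past the threshold, turned sign as follows. With quantile normalization and cyclic loess, Ldha minus Ldhb with taurine against control was 0.013 and 0.059. Without control 3 and control 4, low protein against control gave -0.23 for Pgam2 minus Pgam1, -0.045 for Eno3 minus Eno1 and 0.17 for Ldha minus Ldhb, and taurine against control gave -0.14 for Pgam2 minus Pgam1 and 0.34 for Ldha minus Ldhb. Without taurine arrays 1 and 2, taurine against low protein gave -0.030 for Pgam2 minus Pgam1, -0.12 for Hk2 minus Hk1 and -0.31 for Ldha minus Ldhb, and taurine against control gave -0.21 for Hk2 minus Hk1. Leaving out 1 array gave -0.10 to 0.22 and -0.020 to 0.30 for Pgam2 minus Pgam1, -0.042 to 0.088 and 0.013 to 0.14 for Eno3 minus Eno1, -0.29 to 0.056 and 0.18 to 0.64 for Hk2 minus Hk1, and -0.41 to -0.020 and -0.24 to 0.15 for Ldha minus Ldhb, in low protein and taurine against control. For taurine against low protein it was -0.013 to 0.35 for Ldha minus Ldhb. The causes were not tested. Background correction and scan date could not be varied from the deposited values.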

Other observations

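Gpd1, the cytosolic glycerol-3-phosphate dehydrogenase that links glycolysis to glycerolipid synthesis, was outside the genes named by rule and was chosen after its values were seen. It read 9.36, 8.82, 9.56 and 10.29 in control arrays 1 to 4, 10.84, 9.24, 9.70 and 10.13 in low protein arrays 1 to 4 and 8.77, 9.03, 8.67 and 8.04 in taurine arrays 1 to 4. Every taurine array lay below every low protein array, at -1.35 (SE 0.35; limma adjusted p = 0.347), and against control the value was -0.88 (limma adjusted p = 0.0959). The median of 7 adipocyte markers, relative to the control mean, was 1.15, -0.25, 0.07 and 0.50 in low protein arrays 1 to 4 and -0.24, -0.01, -0.35 and -0.43 in taurine arrays 1 to 4, and its part in Gpd1 was not tested. Pck1, phosphoenolpyruvate carboxykinase of gluconeogenesis, read 7.68, 7.48, 9.51 and 10.91 in control arrays 1 to 4, 9.84, 7.75, 7.89 and 8.09 in low protein arrays 1 to 4 and 7.21, 8.10, 7.49 and 6.98 in taurine arrays 1 to 4. It did not pass in any comparison (limma adjusted p = 0.571, 0.143 and 0.603 for low protein and taurine against control and taurine against low protein).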
